A study of Homo sapiens with 6 samples.

Results

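The genes described here are 37 genes of cholesterol and fatty acid synthesis, with regulators and sterol transport genes. They were listed as controlled by the sterol regulatory element-binding proteins (SREBPs), which was not tested here gene by gene. Listed by symbol, they were matched to the 60675 Ensembl genes of the count data. All 37 were found, and all 37 were among the 18075 genes with enough reads to be tested. They comprise 7 genes of the mevalonate steps, 11 of the steps from squalene to cholesterol, 6 regulators, 4 of fatty acid synthesis, 5 of fatty acid desaturation and elongation, and 4 of sterol transport. The data are RNA-seq libraries of total RNA from PLC/PRF5 cells, a human hepatocellular carcinoma line, with 3 control libraries and 3 libraries after knockdown of MTR4 (MTR4 KD), an RNA helicase that works with the nuclear exosome. Both groups are the same line grown in DMEM with fetal bovine serum. The labels name no agent and no time. The study describes an inducible line in which doxycycline switches on a short hairpin RNA against MTR4, and it places the sequenced cells before and after doxycycline. It reports that doxycycline left the measured glycolytic genes unchanged in cells with a scrambled hairpin. No library of doxycycline-treated cells with a scrambled hairpin was analysed here, so in these libraries the agent and the knockdown cannot be told apart. No source says whether replicates came from separate cultures, so p-values measure the spread between these libraries, which may be technical.

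SREBPs are transcription factors made as membrane proteins of the endoplasmic reticulum. When sterols are scarce, the escort protein SCAP carries them to the Golgi, where proteases release the active fragment, and when sterols are plentiful INSIG proteins hold SCAP back. SREBF2 encodes the form that mainly drives sterol synthesis, and SREBF1 encodes the forms that mainly drive fatty acid synthesis. In the liver these pathways supply cholesterol for membranes, bile acids and lipoproteins, and fatty acids for triglyceride export.

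In the promoter the factors bind the sterol response element, usually beside a CCAAT box bound by NF-Y. RefSeq promoter windows on GRCh38.p14, running from 250 bases before to 50 bases after each start site, were at hand for 33 of the 37 genes. On either strand, TCACNCCAC occurred in 1 of these 33 genes (3.03%), against 1.39% of all 27305 genes with a window. CACGTG, the E-box, occurred in 5 (15.2%, against 8.77%), and CCAAT occurred in 25 (75.8%, against 39.7%). These are matches of letters and not binding sites, and genes with several windows had more chances to match. The background holds every gene with a window, expressed here or not, so it is not matched to these genes. ACAT2, FDFT1, SQLE and FASN had no window. The 250 bases before the start site are shown for SREBF2, the 1 gene with the sterol response element, for SCD, the called gene with the smallest p among those that fell after knockdown, and for LSS, the same among those that rose. They lie on the gene's strand at chr22:41832855-41833104 (plus strand), chr10:100346983-100347232 (plus strand) and chr21:46228775-46229024 (minus strand). Capitals mark TCACNCCAC and CCAAT, read on either strand, so that ATTGG is a CCAAT box on the other strand.
SREBF2: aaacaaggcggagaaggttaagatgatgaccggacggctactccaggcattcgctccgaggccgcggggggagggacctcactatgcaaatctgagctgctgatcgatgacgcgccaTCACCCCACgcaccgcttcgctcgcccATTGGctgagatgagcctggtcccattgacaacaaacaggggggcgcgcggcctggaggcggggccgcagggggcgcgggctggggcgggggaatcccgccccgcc
SCD: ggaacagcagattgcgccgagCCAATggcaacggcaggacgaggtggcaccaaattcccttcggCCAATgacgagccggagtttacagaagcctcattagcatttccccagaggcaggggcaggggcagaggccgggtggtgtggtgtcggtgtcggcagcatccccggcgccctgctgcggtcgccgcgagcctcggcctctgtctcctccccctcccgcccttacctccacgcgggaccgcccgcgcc
LSS: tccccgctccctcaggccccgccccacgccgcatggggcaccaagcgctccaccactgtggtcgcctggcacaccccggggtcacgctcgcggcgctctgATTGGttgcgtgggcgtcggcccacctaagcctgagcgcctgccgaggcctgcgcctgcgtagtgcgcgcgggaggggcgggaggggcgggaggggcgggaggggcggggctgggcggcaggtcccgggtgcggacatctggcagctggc
In SREBF2 the sterol response element begins 133 bases before the start site and the CCAAT box 106 bases before it. SCD holds CCAAT boxes 229 and 186 bases before its start site, and LSS holds 1 at 150 bases. CCAAT was found in 5 of the 6 genes that rose, in 3 of the 6 with a window among those that fell, and in 17 of the 21 that were not called.

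The deposited counts held between 60686786 and 72708682 reads on genes per library. The libraries stood apart in a way that the conditions do not explain. Shares are of all entries counted on genes or in an uncounted class. Entries with no unique alignment were 34.7 to 37.5% in 3 libraries (control replicate 1, control replicate 3 and MTR4 KD replicate 3). They were 14.8 to 18.2% in the other 3 (control replicate 2, MTR4 KD replicate 1 and MTR4 KD replicate 2). The first 3 libraries also had fewer entries not aligned, at 1.33 to 1.86% against 3.83 to 5.96%. Entries of low alignment quality were 1.62 to 1.66% in the first 3 and 5.61 to 5.73% in the other 3. The libraries are therefore treated as 2 library sets, named below by their larger or smaller share of non-unique reads. Each set holds both conditions, and neither is named as a batch by the labels. The quasi-likelihood test of edgeR, with terms for library set and condition, compared the groups (n = 3 each), and a gene is said to rise, fall or be called when its p adjusted over all 18075 genes (Benjamini-Hochberg) was under 0.05. Levels are CPM (reads per 1e6 counted reads) after scaling of library sizes. Between the sets, 31.5% of all tested genes were called. MTR4 itself (MTREX, ENSG00000039123) was at 72.2, 87.4 and 74.4 CPM in the control libraries and at 44.6, 48.8 and 44.1 CPM in the MTR4 KD libraries, a log2 fold change of -0.82 (SE 0.0543, edgeR adjusted p = 3.62e-07), so every library matched its label. All 9 hepatocyte markers listed for a check of the cell type, among them ALB, FGB and HNF4A, were present in every library, and their summed level, made up mostly of FGA and FGB, was 19300 to 20400 CPM in controls and 20900 to 22300 CPM in MTR4 KD. The single markers went both ways. Higher without overlap were ALB, at 740 to 761 CPM in controls and 869 to 953 CPM in MTR4 KD, APOA1, at 501 to 546 and 706 to 781 CPM, and FGB, at 5620 to 5970 and 6620 to 7160 CPM. Lower without overlap was AFP, at 41.7 to 44.3 and 37.8 to 40.7 CPM. TF, at 3250 to 3430 and 3050 to 3290 CPM, and AHSG, at 32.3 to 53.3 and 26 to 36.7 CPM, had overlapping groups, as had FGA, APOA2 and HNF4A. The part of these markers in the results below was not tested. The summed level of the fibroblast markers was 6.41 to 10.3 CPM, of the leukocyte markers 2 to 4.74 CPM and of the endothelial markers 0.0995 to 0.571 CPM over all libraries, and CD68 had at most 1 read in any library.

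After MTR4 knockdown, genes of the pathway moved in both directions. Of the 37 genes, 6 rose (16.2%, against 9.43% of all tested genes), 7 fell (18.9%, against 10.8%) and 24 were not called. The 6 that rose were the mevalonate enzymes MVK, PMVK and MVD, the sterol enzymes LSS and TM7SF2, and the acetyl-CoA synthetase ACSS2. The 7 that fell were the desaturases SCD, FADS1 and FADS2, the elongase ELOVL6, the squalene synthase FDFT1, the sterol sensor INSIG1 and the cholesterol exporter of lysosomes NPC1. In either direction 13 genes were called (35.1%, against 20.2%), and among genes with a mean of at least 5 CPM 13 of 36 (36.1%, against 27.7%). Shares by role or list below are set against all tested genes unless said otherwise, so they do not allow for this difference in level. The genes and roles were also chosen with earlier results of these data known. In bulk RNA, a lower level per cell and fewer expressing cells cannot be told apart. No gene passed a fold change of 2 together with the adjusted p, which 1.92% of all genes did. The log2 fold changes ran from -0.56 in ELOVL6 to 0.29 in MVK, with a median of -0.04 beside 0.01 over all genes. Within the set with more non-unique reads the median was -0.08, and within the set with fewer it was -0.02.

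Every one of the 13 called genes had a difference of the same sign in both library sets, as had 29 of the 37 genes and 12278 of all 18075 tested genes. The calls come from a fit over both sets, so this agreement is not separate support. Each set difference also hangs on a single library in one group, control replicate 2 or MTR4 KD replicate 3. In 6 of the 37 genes every MTR4 KD library lay above every control library (12.1% of all genes did so), and in 7 every one lay below (12.6%). TM7SF2 and FDFT1 were called although their groups overlapped, and IDI1 and MSMO1 did not overlap and were not called. The calls rest on the library set term. With condition as the only term, 3.6% of all genes and only SCD among the 37 passed, and the log2 fold changes of the 13 called genes kept their sign.

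**Figure D1:**
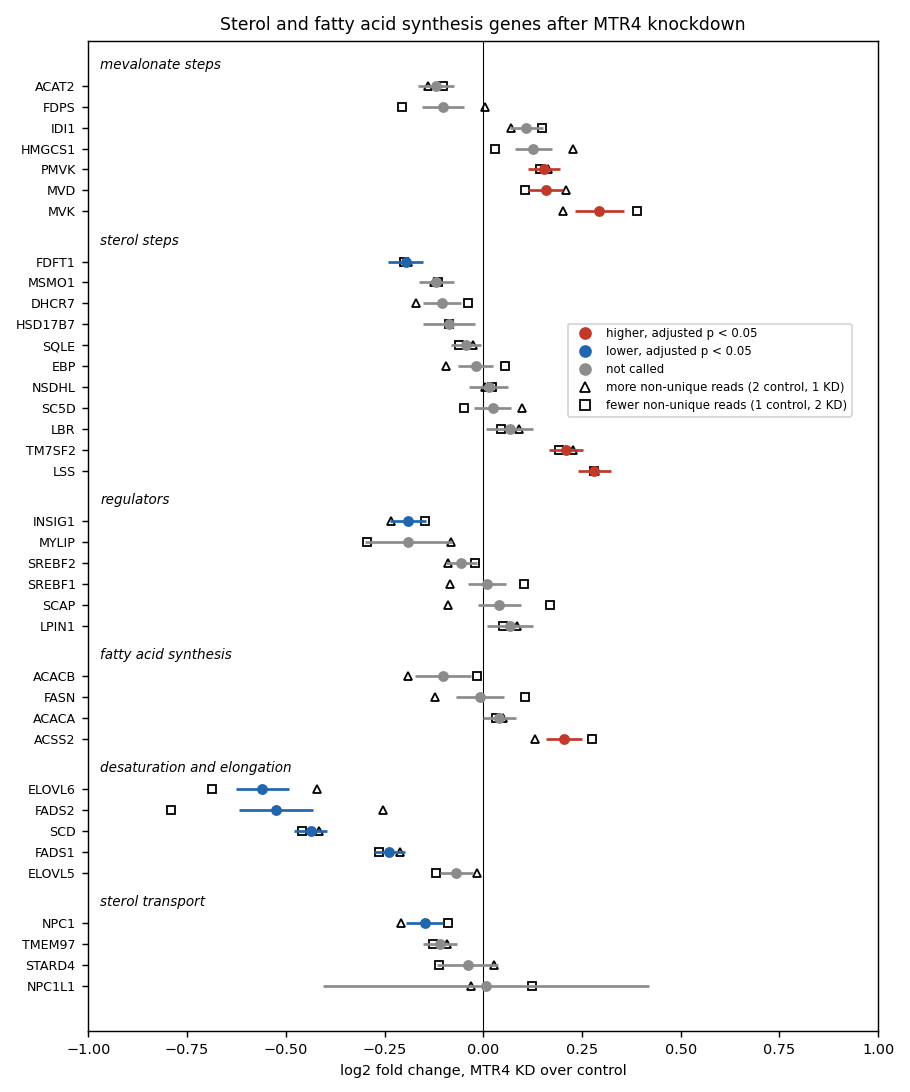
Log2 fold change (x axis, MTR4 KD over control) of the 37 genes (y axis, ordered by role). Filled circles with bars are the edgeR estimate and its standard error, coloured by call, and open triangles and squares are the difference of mean log2 CPM within the set with more and the set with fewer non-unique reads. SCD, FADS1, FADS2 and ELOVL6 lie left of zero in both sets, and the 3 called mevalonate genes right of it.

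The mevalonate steps turn acetyl-CoA into the isoprenoid units from which squalene is built. Of the 7 genes, 3 rose (42.9%, against 9.43% of all tested genes) and none fell (against 10.8%). Their median log2 fold change was 0.13. MVK, the kinase that phosphorylates mevalonate, was at 26.9, 21.0 and 26.7 CPM in control replicates 1, 2 and 3 and at 27.6, 27.4 and 30.8 CPM in MTR4 KD replicates 1, 2 and 3. All 3 MTR4 KD libraries were above all controls, and control replicate 2 was the low library. MVK rose by a log2 fold change of 0.29 (SE 0.0614, edgeR adjusted p = 0.00455), with 0.20 in the set with more and 0.39 in the set with fewer non-unique reads. MVK was also higher in the set with more non-unique reads, by 0.26 on the log2 scale (edgeR adjusted p = 0.00613).

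PMVK, which adds the next phosphate, was at 68.5, 66.8 and 70.4 CPM in controls and at 73.7, 74.0 and 77.8 CPM in MTR4 KD. The groups did not overlap, and the log2 fold change was 0.15 (SE 0.0417, edgeR adjusted p = 0.0195). MVD, the decarboxylase that makes isopentenyl diphosphate, was at 72.1, 77.2 and 73.2 CPM in controls and at 80.8, 85.5 and 83.99 CPM in MTR4 KD. Its groups did not overlap either, with a log2 fold change of 0.16 (SE 0.0448, edgeR adjusted p = 0.0250). These are small rises whose calls depended on single libraries. MVK lost its call without control replicate 2 (log2 fold change 0.20, edgeR adjusted p = 0.0981). PMVK kept its call only without control replicate 3, and its edgeR adjusted p was between 0.0354 and 0.0981 over the 6 libraries left out in turn. MVD kept its call without control replicate 2 or MTR4 KD replicate 1 and lost it without any of the other 4, with a range of 0.0299 to 0.227.

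HMGCS1, which joins acetoacetyl-CoA and acetyl-CoA, was at 97.5, 126 and 97.0 CPM in controls and at 127, 131 and 114 CPM in MTR4 KD. The groups overlapped through control replicate 2, and the log2 fold change of 0.13 (SE 0.0475) was not called (edgeR adjusted p = 0.0796). Within the set with more non-unique reads the difference was 0.23 and within the other 0.03, and the call was made without control replicate 2 (log2 fold change 0.23, edgeR adjusted p = 0.00982). HMGCS1 was lower in the set with more non-unique reads, by a log2 difference of -0.28 (edgeR adjusted p = 0.000579). IDI1, the isomerase, did not overlap between groups, with means of 144 CPM in control and 155 CPM in MTR4 KD, but its log2 fold change of 0.11 was not called (edgeR adjusted p = 0.0890). ACAT2, the thiolase of the first step, had a log2 fold change of -0.12 (edgeR adjusted p = 0.0818), and FDPS, which makes farnesyl diphosphate, had -0.10 (edgeR adjusted p = 0.203). ACAT2 and FDPS differed between the sets by more than between the conditions, at -0.30 and -0.28. ACAT2, HMGCS1, IDI1 and FDPS share over 10% of their exonic bases with other annotated genes, and IDI1 and FDPS have named pseudogenes. Called genes shared less, at most 7.88% in LSS and 6.38% in NPC1. The strand setting of the counting is not given in the sources used here. Reads ambiguous between genes formed a class of their own, at 5.89 to 8.29% of entries per library, and were not counted on a gene. The part of these genes in that class was not tested.

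The sterol steps run from squalene synthesis through lanosterol to cholesterol, and they held calls in both directions. Of the 11 genes, 2 rose (18.2%, against 9.43% of all tested genes), 1 fell (9.09%, against 10.8%) and 8 were not called. Their median log2 fold change was -0.02. LSS, the cyclase that closes the sterol rings, was at 189.6, 185 and 192 CPM in controls and at 218, 231 and 232 CPM in MTR4 KD. Every MTR4 KD library was above every control, and the spread within each group was small. This gave a log2 fold change of 0.28 (SE 0.0410, edgeR adjusted p = 0.000363), with 0.28 in each set, and it was called with any 1 library left out. With condition as the only term its edgeR adjusted p was 0.0527.

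TM7SF2, a sterol reductase that acts after lanosterol, was at 114, 96.1 and 116 CPM in controls and at 106, 113 and 135 CPM in MTR4 KD. The groups overlapped over all libraries, and within each set the MTR4 KD libraries were above the controls. With the set term TM7SF2 rose by 0.21 (SE 0.0424, edgeR adjusted p = 0.00371), with 0.23 and 0.19 on the log2 scale in the sets. FDFT1, the squalene synthase, went the other way. It was at 140.0, 179 and 153 CPM in controls and at 157, 154 and 128 CPM in MTR4 KD. The groups overlapped, and the difference was visible within the sets, at -0.19 and -0.20. FDFT1 had a log2 fold change of -0.20 (SE 0.0443, edgeR adjusted p = 0.00719). Both genes differed between the sets, TM7SF2 by 0.28 and FDFT1 by -0.29 on the log2 scale, and with condition as the only term their edgeR adjusted p was 0.623 and 0.692. Both calls were made with any 1 library left out.

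SQLE, the squalene epoxidase, was at 157, 175 and 156 CPM in controls and at 169, 166 and 154 CPM in MTR4 KD. The groups overlapped, and its log2 fold change of -0.04 (95% confidence interval -0.13 to 0.04) was not called. MSMO1, a C4 demethylation enzyme, was lower in every MTR4 KD library, with means of 138 and 124 CPM, but its log2 fold change of -0.12 was not called (edgeR adjusted p = 0.0772). DHCR7, the reductase of the last step, had a log2 fold change of -0.10 (edgeR adjusted p = 0.146). The other genes of these steps lay closer to zero. Log2 fold changes were -0.09 for HSD17B7 and 0.07 for LBR, both of them sterol reductases, -0.02 for the isomerase EBP, 0.01 for the C4 dehydrogenase NSDHL and 0.02 for the desaturase SC5D, with edgeR adjusted p between 0.395 and 0.885. EBP shares over 10% of its exonic bases with another gene, and HSD17B7 has named pseudogenes.

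Among the 6 regulators only INSIG1 was called (16.7%, against 20.2% of all tested genes). INSIG1, which retains SCAP and is itself an SREBP target, was at 137, 116 and 132 CPM in controls and at 109, 101 and 114 CPM in MTR4 KD. Every MTR4 KD library was below every control, though control replicate 2 and MTR4 KD replicate 3 were close. The log2 fold change was -0.19 (SE 0.0456, edgeR adjusted p = 0.0101), with -0.23 and -0.15 in the sets. INSIG1 was also higher in the set with more non-unique reads, by 0.16 on the log2 scale, and its call was lost without MTR4 KD replicate 3 (log2 fold change -0.14, edgeR adjusted p = 0.142).

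SREBF1 and SREBF2, the genes of the factors themselves, were not called. SREBF1 was at 147, 108 and 143 CPM in controls and at 116, 116 and 137 CPM in MTR4 KD. Its levels followed the library set, with the lowest value in control replicate 2, and it was higher in the set with more non-unique reads by 0.33 on the log2 scale (edgeR adjusted p = 0.000157). Its log2 fold change with the set term was 0.01 (95% confidence interval -0.09 to 0.11), made of -0.09 in one set and 0.10 in the other. SREBF2 was at 226, 201 and 223 CPM in controls and at 198, 198 and 211 CPM in MTR4 KD. The groups overlapped through control replicate 2, and the log2 fold change was -0.06 (95% confidence interval -0.14 to 0.03, edgeR adjusted p = 0.370). SCAP, the escort, had a log2 fold change of 0.04, with -0.09 and 0.17 in the sets, and passed the test only without MTR4 KD replicate 3 (log2 fold change 0.18, edgeR adjusted p = 0.0332). MYLIP, a ubiquitin ligase for lipoprotein receptors, was low at a mean of 5.87 CPM in control and 5.35 CPM in MTR4 KD, with a log2 fold change of -0.19 (SE 0.111). LPIN1, a phosphatidate phosphatase that also acts on SREBP in the nucleus, had 0.07.

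Fatty acid synthesis showed 1 rise among 4 genes (25%, against 9.43% of all tested genes). ACSS2, which makes acetyl-CoA from acetate, was at 99.6, 97.8 and 103 CPM in controls and at 116, 121 and 111 CPM in MTR4 KD. The groups did not overlap, and the log2 fold change was 0.20 (SE 0.0456, edgeR adjusted p = 0.00707). The difference was 0.13 in the set with more and 0.27 in the set with fewer non-unique reads, and ACSS2 lost its call without control replicate 2 (log2 fold change 0.13, edgeR adjusted p = 0.143).

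FASN, the fatty acid synthase, was at 827, 708 and 923 CPM in controls and at 741, 783 and 803 CPM in MTR4 KD. The controls enclosed all 3 MTR4 KD values, and the log2 fold change was -0.01 (95% confidence interval -0.14 to 0.12). FASN was higher in the set with more non-unique reads by 0.19 (edgeR adjusted p = 0.0283), and its difference between conditions was -0.12 in that set and 0.10 in the other. The acetyl-CoA carboxylases ACACA and ACACB, which make malonyl-CoA, had log2 fold changes of 0.04 and -0.10 (edgeR adjusted p = 0.543 and 0.353). The 95% confidence intervals of FASN, ACACA and ACACB ran no lower than -0.25, which left out a fall as large as that of SCD described next.

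Desaturation and elongation, which set double bonds and chain length of fatty acids, held the largest changes among the 37 genes. Of 5 genes, 4 fell (80%, against 10.8% of all tested genes) and none rose (against 9.43%). Among genes with a mean of at least 5 CPM, 27.7% were called in either direction. The roles were chosen with earlier results known, so this share is not independent of the data. The median log2 fold change was -0.44. SCD, the stearoyl-CoA desaturase that makes oleate, was at 2650, 2966 and 2586 CPM in controls and at 2168, 2150 and 1962 CPM in MTR4 KD. The lowest control was above the highest MTR4 KD library. The log2 fold change was -0.44 (SE 0.0412, edgeR adjusted p = 8.70e-06), a fall by 26.1%, with -0.42 in the set with more and -0.46 in the set with fewer non-unique reads. With condition as the only term it was -0.39 (edgeR adjusted p = 0.0435). SCD has 1 named pseudogene, SCDP1. Reads that fit both would fall among those with no unique alignment, which were not counted on a gene.

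ELOVL6, the elongase of palmitate, was at 27.9, 36.4 and 29.1 CPM in controls and at 23.1, 22.2 and 21.3 CPM in MTR4 KD. The groups did not overlap, and the controls spread more widely than the MTR4 KD libraries. ELOVL6 had a log2 fold change of -0.56 (SE 0.0671, edgeR adjusted p = 7.73e-05), a fall by 32.1%, with -0.42 and -0.69 in the sets. With condition as the only term its edgeR adjusted p was 0.0665.

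FADS1 and FADS2 encode the desaturases of polyunsaturated fatty acids. On GRCh38 they lie side by side on chromosome 11 on opposite strands, FADS1 at chr11:61799627-61817003 and FADS2 at chr11:61816203-61867354. They share 801 bases, from which reads cannot be told apart without strand. Exons of FADS2 also overlap FEN1. Reads found ambiguous between genes were not counted on a gene. FADS1 was at 312, 340 and 311 CPM in controls and at 282, 285 and 269 CPM in MTR4 KD. Its groups did not overlap, and the log2 fold change was -0.24 (SE 0.0392, edgeR adjusted p = 0.000914), with -0.21 and -0.26 in the sets. FADS2 was at 37.01, 41.0 and 38.3 CPM in controls and at 24.9, 22.5 and 31.6 CPM in MTR4 KD. Its groups did not overlap, and MTR4 KD replicate 3 was the highest of its group. The log2 fold change was -0.52 (SE 0.0933, edgeR adjusted p = 0.00160), but the size depended on the set, with -0.25 in the set with more and -0.79 in the set with fewer non-unique reads. Without control replicate 2 it was -0.26 (edgeR adjusted p = 0.0460) and without MTR4 KD replicate 3 it was -0.78. ELOVL5, the elongase of polyunsaturated chains, had a log2 fold change of -0.07 (95% confidence interval -0.16 to 0.02, edgeR adjusted p = 0.286). All 4 falling genes were called with any 1 library left out.

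**Figure D2:**
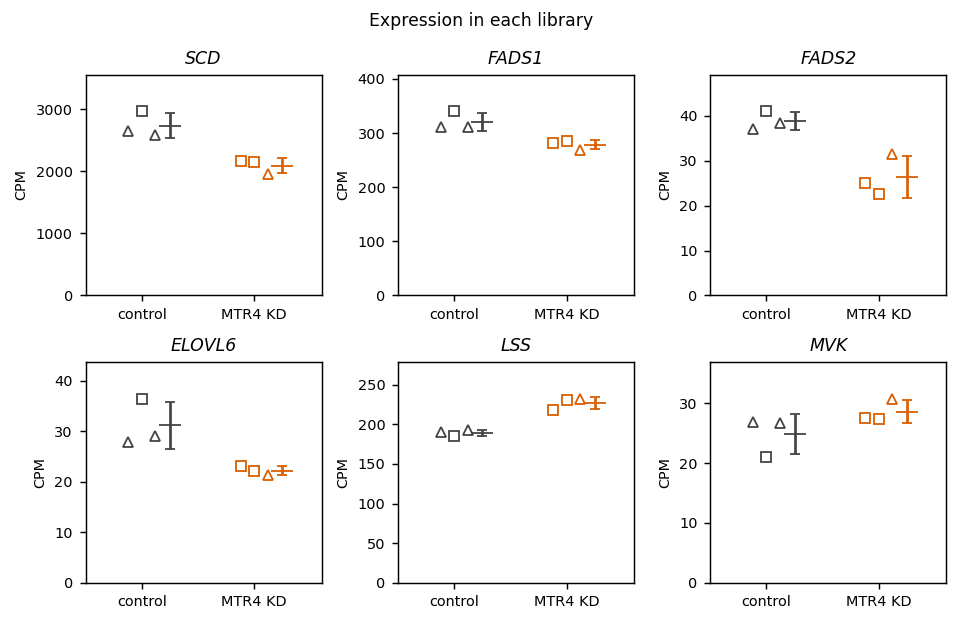
Level in each library (y axis, CPM, from zero) of 4 genes that fell and 2 that rose, in control and MTR4 KD libraries (x axis). Triangles are libraries of the set with more and squares of the set with fewer non-unique reads, and the horizontal dash with its bar is the mean and SD of 3 libraries. In each panel the control and MTR4 KD libraries do not overlap.

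Of the 4 genes of sterol transport, NPC1 fell (25%, against 10.8% of all tested genes). NPC1, which exports cholesterol from lysosomes, was at 92.1, 96.3 and 98.0 CPM in controls and at 90.3, 90.7 and 82.2 CPM in MTR4 KD. The groups did not overlap, but control replicate 1 was close to 2 of the MTR4 KD libraries. The log2 fold change was -0.15 (SE 0.0460, edgeR adjusted p = 0.0373), with -0.21 and -0.09 in the sets. The call of NPC1 was made only without control replicate 2 among the 6 libraries left out in turn, with edgeR adjusted p between 0.0249 and 0.447, and without MTR4 KD replicate 3 the log2 fold change was -0.08. TMEM97, a membrane protein that interacts with NPC1, had a log2 fold change of -0.11 (edgeR adjusted p = 0.0906), and it has named pseudogenes and an exon overlap of over 10% with another gene. STARD4, which carries cholesterol between membranes, had -0.04 (edgeR adjusted p = 0.773). NPC1L1, the sterol uptake protein of enterocytes and hepatocytes, was near the limit of detection with 17 to 35 reads per library, and its log2 fold change of 0.01 had a 95% confidence interval of -0.89 to 0.90, so a change of up to that size was not detectable at this depth.

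Over the 37 genes, 16 differed between the library sets, 6 of them higher and 10 lower in the set with more non-unique reads. Of all 18075 tested genes, 5694 (31.5%) differed, 2928 of them higher and 2766 lower. Of the 13 genes called between conditions, 6 were also called between the sets, which were MVK, TM7SF2, INSIG1, FDFT1, SCD and ELOVL6. Of the 24 others, 10 were called between the sets alone. The part of the library set in these differences was not tested beyond the set term.

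**Figure D3:**
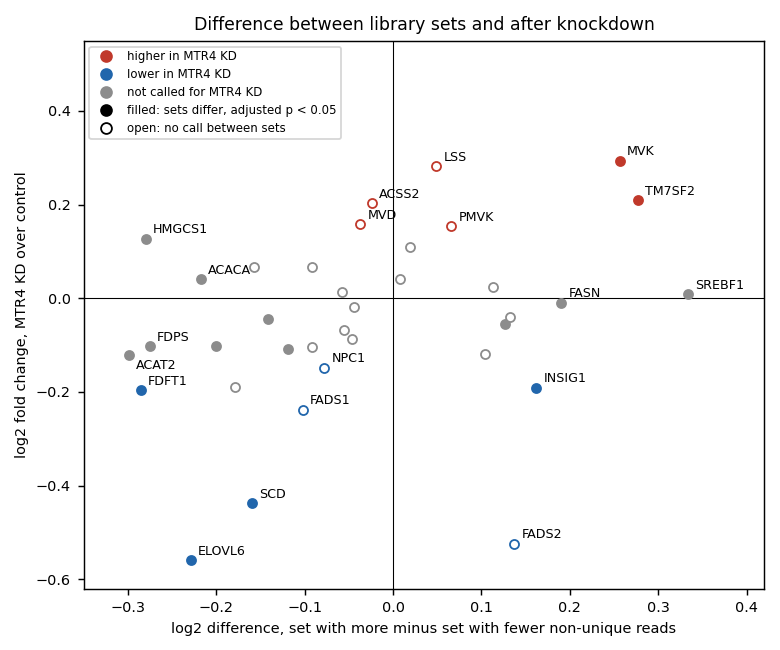
Log2 fold change of MTR4 KD over control (y axis) against the log2 difference between the set with more and the set with fewer non-unique reads (x axis) for 36 of the 37 genes, without NPC1L1, whose counts were low. Colours give the call between conditions, and filled circles are genes called between the sets. SREBF1 lies farthest right at a fold change near zero, and ELOVL6 and SCD differ both ways.

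The neighbouring pathways were read from 6 further lists, of which 77 of 79 genes were tested (SCD5 and THRSP were not). Together 16 rose and 14 fell (39.0% called, against 20.2% of all tested genes and 27.7% of those with a mean of at least 5 CPM). By list, 25% of sterol sensing and feedback, 36.4% of sterol esters and traffic and 22.2% of the isoprenoid branch were called. The shares of 25% and 22.2% lie between those 2 background shares. Of the 12 genes of sterol sensing and feedback, ERLIN2, which takes part in sterol-driven degradation of endoplasmic reticulum proteins, rose by 0.16 on the log2 scale (edgeR adjusted p = 0.0117). INSIG2, the second INSIG protein, fell by 0.25 (edgeR adjusted p = 0.0291) and MBTPS1, the first protease that cleaves SREBPs, fell by 0.15 (edgeR adjusted p = 0.0183). With 1 library left out in turn, ERLIN2 was called in 4, INSIG2 in 2 and MBTPS1 in 3 of 6 fits, and the edgeR adjusted p was highest without MTR4 KD replicate 3, at 0.0597, 0.162 and 0.117. Of the 11 genes of sterol esters and traffic, NPC2, the lysosomal partner of NPC1, rose by 0.21 (edgeR adjusted p = 0.00579). SCARB1, the receptor for high-density lipoprotein, fell by 0.21, GRAMD1A, a cholesterol carrier from the plasma membrane, by 0.23 and LIPA, the lysosomal acid lipase, by 0.15 (edgeR adjusted p = 0.00736, 0.00868 and 0.0216). SCARB1, GRAMD1A and LIPA were not called without MTR4 KD replicate 3, at log2 fold changes of -0.12, -0.09 and -0.13, and were called in 4, 5 and 1 of the 6 fits. Of the 9 genes of the isoprenoid branch, PDSS2 and COQ2 of ubiquinone synthesis rose by 0.18 and 0.20 (edgeR adjusted p = 0.0212 and 0.0439), and each was called in 2 of the 6 fits, missing the threshold without control replicate 2 (edgeR adjusted p = 0.0765 and 0.314).

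Of 19 tested genes of acyl-CoA supply, activation and elongation, 4 rose and 4 fell (21.1% each, against 9.43% and 10.8% of all tested genes). ELOVL2, an elongase of polyunsaturated chains, was at 493, 465 and 460.2 CPM in controls and at 622, 597 and 616 CPM in MTR4 KD, without overlap and with a log2 fold change of 0.38 (edgeR adjusted p = 6.41e-05). It moved opposite to ELOVL6 and the FADS genes. MLXIPL, which encodes the carbohydrate-responsive factor ChREBP, rose by 0.53 (edgeR adjusted p = 0.000420), with 0.74 in the set with more and 0.31 in the set with fewer non-unique reads and 0.33 without MTR4 KD replicate 3. HACD2, a dehydratase of fatty acid elongation, rose by 0.27 (edgeR adjusted p = 0.00242). The acyl-CoA synthetases ACSL3 and ACSL5 fell by 0.36 and 0.55 (edgeR adjusted p = 6.28e-05 and 0.000114), and HSD17B12, a reductase of elongation, fell by 0.24 (edgeR adjusted p = 0.00287).

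Of 12 genes of glycerolipid synthesis and lipid droplets, 3 rose (25%, against 9.43% of all tested genes) and 5 fell (41.7%, against 10.8%). DGAT2, which adds the last acyl chain of triglycerides, was at 26.9, 23.4 and 26.4 CPM in controls and at 34.7, 37.8 and 40.3 CPM in MTR4 KD, with a log2 fold change of 0.62 (edgeR adjusted p = 7.53e-06). Its groups did not overlap. LPIN3, a phosphatidate phosphatase, rose by 0.42 (edgeR adjusted p = 0.00239), and without MTR4 KD replicate 3 LPIN3 was at 0.22 (edgeR adjusted p = 0.0734). AGPAT3, an acyltransferase, rose by 0.20 (edgeR adjusted p = 0.00662), and its call was lost without control replicate 2 (edgeR adjusted p = 0.0810). GPAT3 and AGPAT2, acyltransferases of the first and second acylation, fell by 0.35 and 0.26 (edgeR adjusted p = 0.000124 and 0.00126), and PLIN2, a coat protein of lipid droplets, fell by 0.39 (edgeR adjusted p = 0.000317).

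Fatty acid oxidation, which breaks fatty acids down, had 5 rises among 14 genes (35.7%, against 9.43% of all tested genes). It had no fall, against 10.8% of all tested genes, and its median log2 fold change was 0.10. CPT1A, which admits fatty acids to mitochondria, and PPARA, a nuclear receptor that drives oxidation genes, each rose by 0.22 on the log2 scale (edgeR adjusted p = 0.00235 and 0.00257). CPT1A followed the library set as well, at 222 and 227 CPM against 334 CPM in controls, and its groups overlapped. SLC25A20, the carrier of acylcarnitines into mitochondria, rose by 0.29 (edgeR adjusted p = 0.00353), and its call was lost without control replicate 2 (log2 fold change 0.24, edgeR adjusted p = 0.0503).

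**Figure D4:**
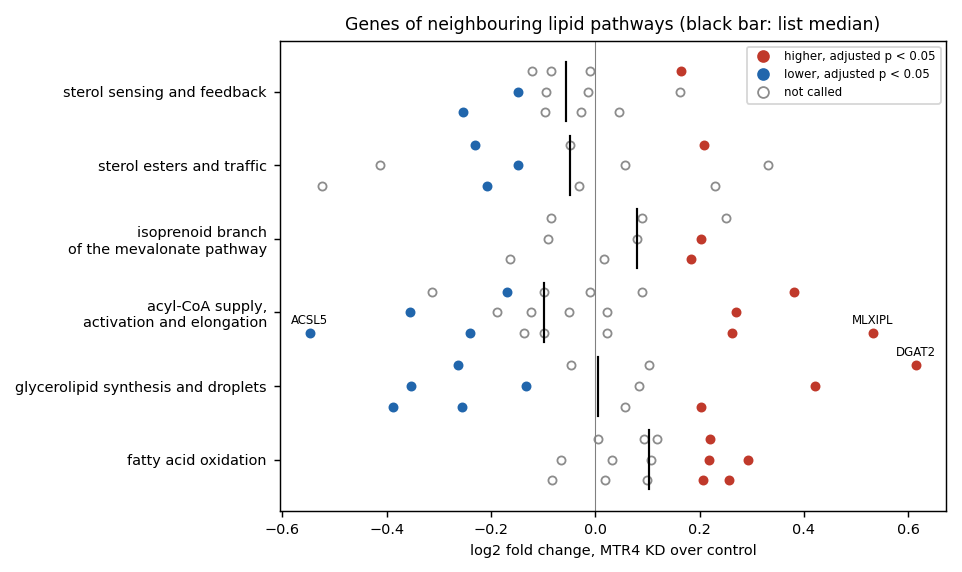
Log2 fold change (x axis, MTR4 KD over control) of the 77 tested genes of 6 neighbouring lists (y axis), 1 point a gene, spread vertically only to separate points. Filled points are called genes, open points are not called, and black bars are list medians. The 5 called genes of fatty acid oxidation all lie right of zero, and the other lists except the isoprenoid branch hold calls on both sides.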

How the data were processed

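The authors deposited raw counts of reads per Ensembl gene, 1 file per library, with the classes of reads not counted on a gene. Per the labels' processing notes, HISAT2 2.1.0, GRCh38, HTSeq and DESeq2 were used. The strand setting of the counting is not given in the sources used here. Symbols came from a GENCODE table that held 56959 of the 60675 genes, positions and promoters from RefSeq on GRCh38.p14.

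Counts were analysed in R 4.3.3 with edgeR 4.0.16 (filterByExpr with a minimum count of 10, TMM scaling, quasi-likelihood test with library set and condition as terms, Benjamini-Hochberg adjustment over 18075 genes, threshold 0.05). Library sets were split at a share of 30% of entries with non-unique alignment. The fit left 3 residual degrees of freedom, and the biological coefficient of variation was 0.0573, against 0.175 with condition only. Same-group libraries differed by a chi-square per degree of freedom of at least 4.61, so none was a duplicate. Counts ranged from 60686786 to 72708682 per library, and SE values give the precision. Each SE was derived from the test, as the absolute log2 fold change divided by the square root of the F statistic. The 95% confidence intervals used these SE values and a t distribution, with prior degrees of freedom shared over genes added to the residual ones. The fit was tested on simulated data. Alternatives used limma 3.58.1 and DESeq2 1.42.0. Promoter searches and plots used pandas 2.3.3 and matplotlib 3.10.9 under Python 3.11.15.

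The 37 genes, their roles and the other lists were chosen with earlier results of these data known. Before counting, 1 gene was taken out of the other lists and is not reported here. Values in every library are given for called members and for SREBF1, SREBF2, INSIG1, SQLE, FASN, SCD and HMGCS1. From other lists at most 3 called genes per direction are named, smallest p first, and libraries are given for a few of these, chosen after their values were seen. Promoters were to be shown for called members with the sterol response element. As 0 had it, the 3 shown were chosen after the matches were seen. Alternatives were condition only, the replicate number as a block with and without the library set, DESeq2 size factors, total counts, no filter, a filter at 1 CPM, DESeq2's Wald test, limma-voom and each library left out in turn.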

Additional observations from a re-analysis of the deposited data

How the results depend on the processing

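The 13 calls stood with DESeq2 size factors, without a filter, with a filter at 1 CPM, with DESeq2's Wald test and with limma-voom, and 12 stood with total counts, where NPC1 missed the threshold. Over all alternatives the called genes kept their direction in 195 of 195 values and their call in 150, and the named genes of the other lists kept their call in 290 values, lost it in 70 and reversed in 0. With condition as the only term (3.6% of all genes called), 0 members rose and 1 fell, and 2 genes of the other lists rose and 3 fell. The same replicate numbers occur in both groups, but the labels pair no libraries, so the numbers were not used as pairs. Correlations of deviations between same-numbered libraries were -0.215, 0.301 and 0.326. Between any control and MTR4 KD library they were 0.301 to 0.332 within a library set and -0.465 to -0.203 across sets. The correlations followed the set, so they cannot decide on pairing. With the number as a replicate block (4.74% of all genes called), 0 members rose and 3 fell (SCD, FADS2 and ELOVL6), and 3 genes of the other lists rose and 5 fell. With the replicate block and the library set (11.8% of all genes called), 3 members rose and 5 fell, and 12 genes of the other lists rose and 9 fell. With 1 library left out (12.9 to 15.8% of all genes called), 4 to 5 members rose and 5 to 7 fell. In these fits 11 to 16 genes of the other lists rose and 6 to 13 fell, the 6 without MTR4 KD replicate 3. Without control replicate 2 or MTR4 KD replicate 3 only 1 set holds both conditions.

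Signs turned only in members that were not called. With condition only, log2 fold changes were 0.0027 for SQLE, -0.011 for SC5D, -0.11 for SREBF1 and -0.12 for NPC1L1. With the replicate block they were 0.0034 for SQLE, -0.014 for SC5D, -0.10 for SREBF1 and -0.068 for NPC1L1, with the block and the set -0.0067 for SC5D, and without a filter -0.00040 for NPC1L1. With 1 library left out they ran from -0.19 to 0.0032 in FDPS, -0.087 to 0.12 in SREBF1, -0.090 to 0.18 in SCAP, -0.095 to 0.029 in STARD4, -0.16 to 0.28 in NPC1L1, -0.12 to 0.12 in FASN, -0.019 to 0.044 in NSDHL, -0.096 to 0.068 in EBP and -0.037 to 0.096 in SC5D. The cause of these changes was not tested.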
